A study of Sus scrofa with 9 samples.

Results

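The data described here are the 3 RNA sequencing libraries of porcine preadipocytes transfected with an siRNA against lnc*PLAAT3*-AS, set against the 3 control libraries, which makes 6 of the 9 libraries of the series. The remaining 3 libraries carry a lnc*PLAAT3*-AS overexpression plasmid and enter the results here only as an alternative fit. The cells, primary preadipocytes (precursors of adipocytes that resemble fibroblasts), came from the back fat of female Rongchang piglets, with no age stated in the labels or methods. The siRNA group carries the genotype label inhibition. The control group is labelled WT and described as a blank control, while the methods speak of a negative control. If the control cells were not transfected, effects of transfection or of any siRNA cannot be told apart from those of losing lnc*PLAAT3*-AS. In both groups the labels give day 8 after induction with insulin, IBMX and dexamethasone, in a growth medium of DMEM with 20% fetal bovine serum. All 3 repeats used cells of 1 pig, and the p-values therefore cover the spread between samples of a single animal. The level of lnc*PLAAT3*-AS, which would check the labels, was not analysed here. The question addressed was which genes outside lists of interferon, NF-kB and prostaglandin genes differed after the siRNA, and at what level they stood. A gene outside these lists may still belong to those pathways.

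Lnc*PLAAT3*-AS is a long noncoding RNA transcribed antisense to *PLAAT3*, which encodes a phospholipase of fat cells, and an siRNA directs the cleavage of a matching RNA. Cultured preadipocytes are fibroblasts that secrete collagen and other matrix, read growth factors and G protein-coupled receptor ligands, and can take up an actin-rich contractile state in which genes of smooth muscle are expressed. A signal that reaches such a cell through ERK or cyclic AMP first induces immediate early transcription factors and then its own inhibitors, among them the DUSP phosphatases, the Sprouty and RGS proteins and the phosphodiesterases. IBMX, part of the induction mix of both groups, blocks phosphodiesterases, and dexamethasone activates the glucocorticoid receptor.

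Estimated counts summed to between 16724902 and 17130200 per siRNA library and between 17099182 and 17434444 per control library. Levels are given as CPM (counts relative to the library total, after TMM scaling), and where genes are compared with each other as FPKM, which also divides by gene length. Values in parentheses after a gene are log2 fold changes, siRNA over control, and values after ± are SDs over the 3 libraries of a group unless marked as a standard error (SE). Adjusted p-values come from edgeR's quasi-likelihood test with Benjamini-Hochberg adjustment over all tested genes. A gene was called higher or lower where it differed by at least 2-fold with an adjusted p under 0.05, and rose or fell is said of called genes. Over the 12471 genes tested, 972 genes were called higher and 862 lower after siRNA, which is 14.7% of all tested genes, 7.79% higher and 6.91% lower. The median log2 fold change (siRNA over control) of all tested genes was 0.0084. Replicate libraries of a group differed by 4.54 to 12.9 times the variance that sampling noise gives. Several markers of mature adipocytes were near 0. *ADIPOQ* had 0 counts over the siRNA libraries and 11 over the control libraries, and *PLIN1* 2 and 12. *LEP* and *RETN* had 0 counts in both groups. Of 10 tested adipocyte markers 2 were called higher and 3 lower (median log2 fold change -0.19). *FABP4* was not called (-0.32), at 10.4 ± 1.79 FPKM after siRNA and 13.1 ± 0.544 FPKM in the control. *CD36* was called higher (1.12) but may share reads with another gene. Summed fibroblast markers stood at 55392 to 57847 CPM after siRNA, against 81507 to 86707 CPM in the control, a sum dominated by *COL1A1* (16838 ± 900.0 CPM after siRNA, 48641 ± 2382 CPM in the control), while 9 of the 13 tested fibroblast markers had a positive log2 fold change (median 0.40), with 2 called higher and 3 lower. Summed macrophage markers were at 96.6 to 99.6 CPM after siRNA, against 116 to 121 CPM in the control, with *CD163*, *C1QB* and *ADGRE1* at 0. Within this sum *CD86* stood at 32.4 ± 1.53 CPM after siRNA and 66.9 ± 8.69 CPM in the control. *CD14* stood at 47.3 ± 3.58 CPM after siRNA and 36.7 ± 4.87 CPM in the control. Of the macrophage markers 7 were tested, 4 had a positive log2 fold change, and *TYROBP* (1.48) was called higher. Called lower were *CD86* (-1.04, or -0.96 without control replicate 1) and *MRC1* (-3.14, with 4 counts over the siRNA libraries and 39 over the control libraries). Endothelial markers were at 22.8 to 23.4 CPM after siRNA, against 34.6 to 36.4 CPM in the control. Lymphocyte markers were at 2.76 to 3.46 CPM after siRNA, against 2.40 to 3.10 CPM in the control, with *PTPRC* and *CD8A* at 0. The part of such cells in the results was not tested. In bulk RNA, fewer cells of a type and less RNA per cell cannot be told apart. Summed keratin and other epithelial markers were highest in replicate 3 of each group, at 30.7 CPM against 8.59 and 11.5 CPM in the other siRNA libraries, and at 89.4 CPM against 31.9 and 36.2 CPM in the other control libraries. Without replicate 3 of both groups, an alternative chosen after seeing the data, 1015 genes were called higher and 958 lower.

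*PLAAT3* had 5.40, 5.01 and 5.17 CPM after siRNA, against 9.73, 11.8 and 10.8 CPM in the control, and fell (log2 fold change -1.05, adjusted p = 1.32e-06). Its fold change did not reach 2-fold without control replicate 2 (log2 fold change -0.98). The largest changes among genes that had a symbol and averaged 5 CPM or more, with groups that did not overlap and no place on the interferon, NF-kB and prostaglandin lists were those of *PCSK1* and *DES*. *PCSK1*, which encodes the prohormone convertase 1, had 340.5, 302 and 249.7 CPM after siRNA, against 0.401, 0.233 and 3.86 CPM in the control, a log2 fold change of 7.63, or 9.84 without control replicate 3. *CBLN4*, which encodes a secreted synaptic organizer, had 113, 108 and 139.9 CPM after siRNA, against 1.37, 1.17 and 1.81 CPM in the control. Among the other genes at the top were *HSD3B1*, which encodes an enzyme of steroid hormone synthesis (6.32), *PLEK*, which encodes pleckstrin (6.26), *ETV7*, which encodes an ETS factor (5.73), and *ARG1*, which encodes arginase 1 (5.68). At the lower end stood *CA4*, which encodes a membrane-bound carbonic anhydrase (-6.35, or -6.99 without siRNA replicate 2), *NCAM1*, which encodes an adhesion molecule of nerve and muscle (-4.71), and *LIMS2*, which encodes a partner of integrin-linked kinase (-4.47). *ABL2*, which encodes a tyrosine kinase that binds actin, also rose, with 95.9, 84.4 and 85.3 CPM after siRNA, against 15.6, 15.9 and 16.8 CPM in the control. For *ADCY1*, which encodes an adenylyl cyclase, the 22 counts of the siRNA group and 6 of the control group were too few to be tested.

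The 24 gene lists described below hold 1166 genes of the table, of which 863 had enough counts to be tested, 25 had no count in either group and the others too few. Of the tested members 172 were called higher, 194 lower and 497 neither, so 42.4% were called, beside 14.7% of all tested genes. None of the 366 called members overlapped between the groups, which the call itself makes likely. Of all tested genes, called or not, 61.7% did not overlap. The lists were picked with results of these data known, so that the 42.4% called is a description. By class, 38 of 150 tested transcription factors were called higher and 19 lower, as were 29 and 19 of 109 feedback genes, 49 and 46 of 204 receptors and ligands, 17 and 21 of 104 channel genes, 37 and 54 of 226 matrix genes, and 2 and 36 of 72 contractile genes.

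**Figure D1:**
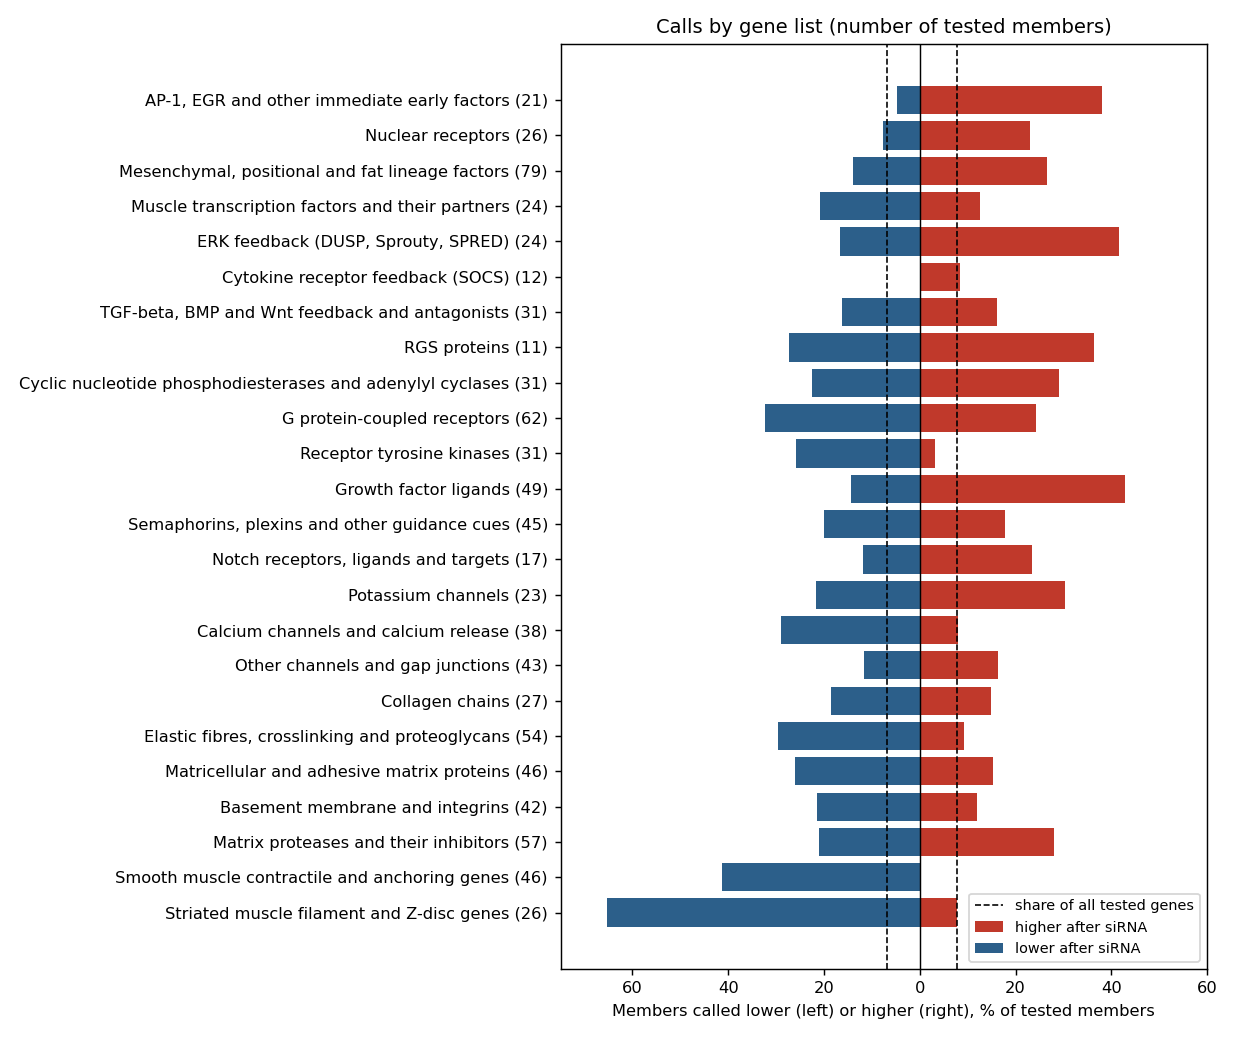
Share of the tested members of each gene list (their number in parentheses) that was called lower (bars to the left) or higher (bars to the right) after siRNA, in % of tested members, with the shares over all tested genes (6.91% and 7.79%) as dashed lines. Growth factor ligands and ERK feedback genes have the longest bars to the right, and striated and smooth muscle genes the longest to the left.

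Immediate early factors of the FOS, EGR and MAF families rose, while *JUN* was lower by less than 2-fold. Of 21 tested members of the AP-1, EGR and immediate early list, 8 were called higher and 1 lower, with a median log2 fold change of 0.44. *EGR1*, a zinc finger factor induced by growth factors, had 425, 439 and 438 CPM after siRNA, against 124, 134 and 158 CPM in the control (log2 fold change 1.64 with a standard error of 0.0852, adjusted p = 1.16e-11). *FOSL1*, a FOS-type partner in AP-1 dimers, had 166, 169.6 and 181 CPM after siRNA, against 44.3, 47.1 and 50.6 CPM in the control. Its log2 fold change was 1.86, beside 2.20 for *MAFF*, a small MAF protein, 1.69 for *FOSB* and 1.56 for *IER3*, an immediate early gene that protects from cell death. *JUNB* (0.85, or 1.01 without replicate 3 of both groups) and *FOS* (0.76), 2 further AP-1 subunits, were higher by less than 2-fold. *BATF2*, an AP-1 type factor of interferon-treated cells, had a larger change, with 12.1, 13.4 and 14 CPM after siRNA, against 0.515, 0.233 and 0.117 CPM in the control. Its log2 fold change of 5.47 was 6.17 without control replicate 1. The related *BATF3* was the member called lower (log2 fold change -2.06). *JUN* had 49.5, 59.2 and 53.3 CPM after siRNA, against 90.5, 90.7 and 93.0 CPM in the control, a log2 fold change of -0.76 (adjusted p = 1.22e-07) that stayed within 2-fold. By FPKM, *IER3* (317 ± 7.89 after siRNA, 108 ± 9.32 in the control) and *BHLHE40* (199 ± 2.41 and 146 ± 8.96) were the highest of the list (mean ± SD, n = 3).

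Among nuclear receptors the NR4A orphan receptors *NR4A2* and *NR4A3* rose most and *PPARG* fell. *NR4A1*, of the same family, was not found among the gene symbols. Of 26 tested nuclear receptors 6 were called higher and 2 lower (median log2 fold change 0.08). *NR4A2*, a receptor without a known hormone that is switched on within minutes of a stimulus, had 266, 265 and 264 CPM after siRNA, against 9.5, 10.7 and 13.7 CPM in the control, with a log2 fold change of 4.55 ± 0.103 (SE, adjusted p = 1.58e-16). It was the highest member by FPKM after siRNA (102 ± 0.540), against 3.93 ± 1.03 in the control. *NR4A3* had 54.0, 51.4 and 45.6 CPM after siRNA, against 3.84, 3.38 and 6.73 CPM in the control. Members of the circadian clock loop rose too, the activator *RORA* by a log2 fold change of 1.5 and the repressors *NR1D1* of 1.37 and *NR1D2* of 1.26. *PPARG*, the master regulator of fat cells, had 1.68, 1.85 and 1.53 CPM after siRNA, against 7.61, 7.64 and 7.08 CPM in the control (log2 fold change -2.14, adjusted p = 2.82e-09). *VDR*, the vitamin D receptor, was lower by a smaller amount (log2 fold change -1.10), and *NR1H2*, which encodes a liver X receptor and was the highest member in the control at 52.6 ± 5.02 FPKM, was at 0.12 (adjusted p = 0.236).

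The mesenchymal, positional and fat lineage factors moved in both directions, 21 called higher and 11 lower of 79 tested (median log2 fold change 0.31). *TBX3*, a T-box repressor of limb and stromal development, had 154, 162 and 164 CPM after siRNA, against 16.5, 17.4 and 19.8 CPM in the control, a log2 fold change of 3.16 (adjusted p = 1.06e-15). *FOXS1*, a forkhead factor of pericytes and sensory neurons, had 71.0, 75.8 and 76.0 CPM after siRNA, against 4.75, 4.08 and 5.91 CPM in the control (log2 fold change 3.92). *FOXL1* (2.08), *EYA1* (2.18) and *SOX9* (1.71), the cartilage factor, rose too, as did *TBX2* (1.46), a relative of *TBX3*, the ETS factor *ETV4* (1.65), a target of ERK signalling, and *TWIST1* (1.22), which keeps cells mesenchymal. *GATA6*, a zinc finger factor of mesoderm and smooth muscle, had 2.52, 2.03 and 1.41 CPM after siRNA, against 11.7, 11.3 and 12.8 CPM in the control (log2 fold change -2.59). *SNAI2*, a repressor that holds cells in the mesenchymal state, had 33.7, 31.4 and 33.5 CPM after siRNA, against 104, 113 and 115 CPM in the control, and *OSR1*, which marks fibro-adipogenic progenitors, was lower with a log2 fold change of -1.66. *GLI1*, a target of Hedgehog signalling, was at -1.52 and *ID4*, an inhibitor of helix-loop-helix factors, at -2.04. The 3 C/EBP factors that act in fat cell formation did not move alike. *CEBPB*, which acts early, had a log2 fold change of 1.05, or 0.93 without siRNA replicate 2 and 0.96 without control replicate 1. *CEBPA*, which acts late together with *PPARG*, had 6.65, 6.38 and 3.87 CPM after siRNA, against 13.3, 15.9 and 16.9 CPM in the control (log2 fold change -1.45). *CEBPD* was higher by less than 2-fold (log2 fold change 0.47) and was, with *ID3* (0.37), the most abundant of the list by FPKM.

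Of 24 tested muscle transcription factors and their partners 3 were called higher and 5 lower (median log2 fold change -0.26). *TEAD4*, which binds DNA for the coactivator YAP, had 4.2, 3.40 and 5.22 CPM after siRNA, against 17.9, 20.1 and 21.1 CPM in the control (log2 fold change -2.20). *ANKRD1*, a muscle ankyrin repeat protein and a target of YAP, had 0, 0.179 and 0.176 CPM after siRNA, against 2.35, 2.27 and 1.29 CPM in the control. This was a log2 fold change of -3.97, or -4.58 without replicate 3 of both groups. *CSRP1*, a LIM protein of smooth muscle, was lower (-1.14), as was *VGLL3*, a TEAD cofactor, whose log2 fold change of -1.0 lay at the threshold and within 2-fold without siRNA replicate 3, control replicate 1 or control replicate 2 (-0.98 to -0.95). *CSRP2* (1.45), a relative of *CSRP1*, and *VGLL4* (1.32), which competes with YAP for TEAD factors, rose. *FHL3*, a LIM protein that was among the most abundant of the list, was at -0.96, or -1.04 without siRNA replicate 2. *SRF* and its coactivators, which switch on smooth muscle genes, were not called. *SRF*, which binds CArG boxes in their promoters, had 52.4, 58.6 and 55.4 CPM after siRNA, against 68.2, 72.3 and 70.9 CPM in the control (log2 fold change -0.34, adjusted p = 0.000538). Its coactivator *MRTFA* was at -0.02 (adjusted p = 0.819), and *MYOCD*, the muscle-specific coactivator, had 0.899, 0.954 and 0.704 CPM after siRNA, against 0.458, 1.22 and 1.11 CPM in the control (log2 fold change -0.12, adjusted p = 0.786). The signs of *MRTFA* and *MYOCD* turned under some alternatives.

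**Figure D2:**
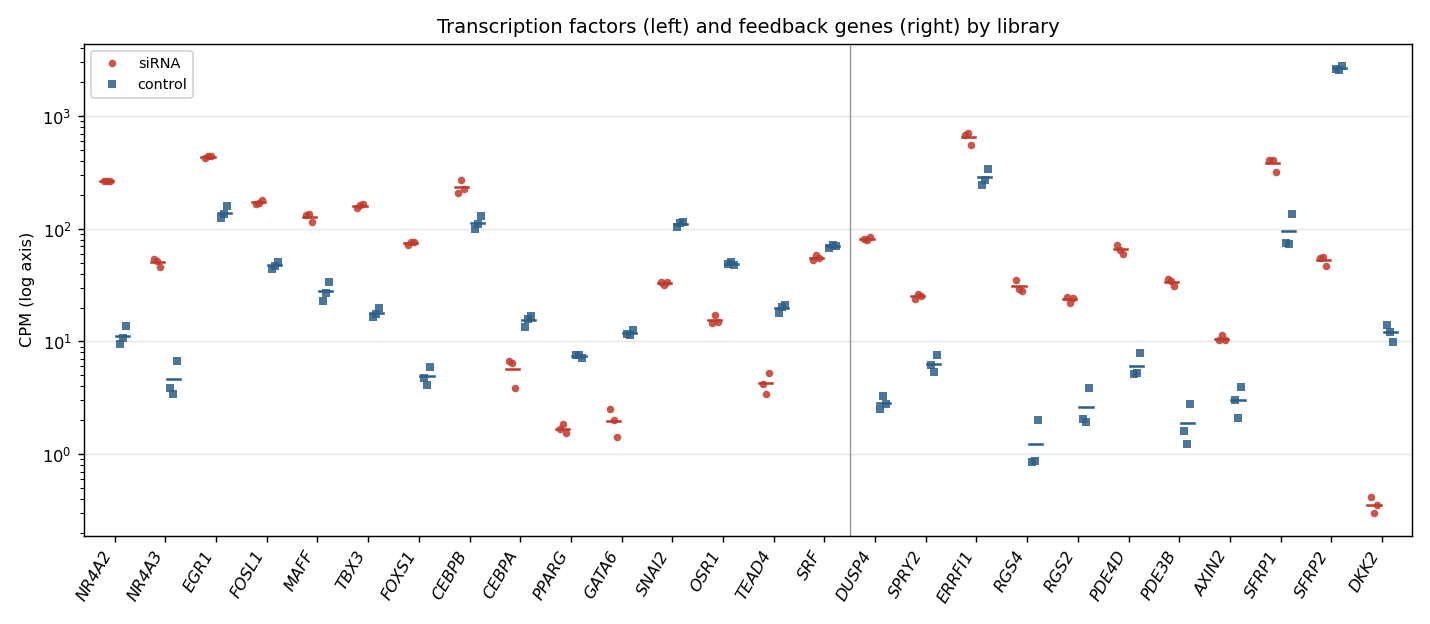
CPM on a log axis of 15 transcription factors and 11 feedback genes in each siRNA library (circles) and control library (squares), with the mean of each group as a line. In each of the 26 genes the 3 siRNA libraries lie on one side of the 3 control libraries, *SRF* with the smallest difference of the means and *SFRP2* and *DKK2* with the largest falls.

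Inhibitors of the ERK pathway formed the feedback group with the most calls to the higher side, 10 higher and 4 lower of 24 tested (median log2 fold change 0.47). *DUSP4*, a nuclear phosphatase that inactivates ERK, had 80.6, 80.1 and 83.9 CPM after siRNA, against 2.52, 3.27 and 2.81 CPM in the control, with a log2 fold change of 4.83 ± 0.104 (SE, adjusted p = 1.11e-16). *DUSP5* (1.28) and *DUSP6* (1.27), which also act on ERK, were higher too. *SPRY2*, which blocks growth factor receptors upstream of RAS, had 23.9, 26.2 and 25.5 CPM after siRNA, against 6.18, 5.37 and 7.54 CPM in the control, and *SPRY4* a log2 fold change of 1.48. *LRIG3*, a membrane protein related to inhibitors of receptor tyrosine kinases, was at 1.67. *ERRFI1*, which inhibits the EGF receptor, was the most abundant member, with 226 ± 23.3 FPKM after siRNA and 99.9 ± 14.5 FPKM in the control (log2 fold change 1.18). *DUSP1*, an immediate early phosphatase, was the next by FPKM and not called (log2 fold change 0.17, adjusted p = 0.053). The 4 members called lower, *DUSP8* (-1.09), *DUSP10* (-1.04), *DUSP14* (-1.04) and *TRIB3* (-1.01), lay close to 2-fold. Without siRNA replicate 1, 2 members of the list were called lower, *DUSP10* being at -0.98 and *TRIB3* at -0.97. *DUSP10* was at -0.92 without control replicate 3, *TRIB3* at -0.98 without control replicate 2 and *DUSP14* just within 2-fold without siRNA replicate 3. DUSP8 and DUSP10 mainly act on JNK and p38 rather than on ERK. In the feedback of cytokine receptors, *SOCS1*, which blocks JAK kinases, was the single member of 12 called (log2 fold change 1.12, adjusted p = 2.39e-05) and *SOCS3* was at 0.33. The median of these 12 genes was 0.45, and 2 members were called without siRNA replicate 1, siRNA replicate 2 or control replicate 3.

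Secreted Wnt antagonists changed in opposite directions. In the list of TGF-beta, BMP and Wnt feedback genes 5 were called higher and 5 lower of 31 tested (median log2 fold change 0.03). *SFRP2*, the most abundant of them in the control, had 54.9, 55.6 and 47.1 CPM after siRNA, against 2597, 2576 and 2765 CPM in the control, a log2 fold change of -5.65 (adjusted p = 6.27e-18). *DKK2*, which blocks the Wnt coreceptor LRP6, had 0.420, 0.298 and 0.352 CPM after siRNA, against 14, 12.2 and 9.88 CPM in the control. *SFRP1*, of the same family as *SFRP2*, rose to 409, 410.4 and 321 CPM after siRNA, against 75.1, 73.2 and 136 CPM in the control (log2 fold change 2.01). *NOTUM* (1.96), which inactivates Wnt ligands, *AXIN2* (1.81), a target and inhibitor of beta-catenin signalling, and the secreted antagonists *FRZB* (1.84) and *WIF1* (1.61) rose as well. *NKD2* (-1.77), which inhibits the pathway inside the cell, and *SFRP5* (-1.81) fell. *FSTL1*, which encodes a follistatin-like glycoprotein and was the most abundant member after siRNA, was lower by less than 2-fold (log2 fold change -0.63).

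The RGS proteins, which end G protein signals by speeding GTP hydrolysis, were called in 7 of 11 tested cases, 4 higher and 3 lower (median log2 fold change -0.32). *RGS4* had 35.3, 29.5 and 28.2 CPM after siRNA, against 0.859, 0.875 and 1.99 CPM in the control (log2 fold change 4.64, adjusted p = 3.54e-12). *RGS2* had 24.8, 22.1 and 24.5 CPM after siRNA, against 2.06, 1.92 and 3.86 CPM in the control. *RGS5*, a pericyte marker, was at 3.71, or 4.35 without control replicate 3, and *RGS17* at 1.5. Of the members called lower, *RGS7* stood at 1.88 ± 0.291 CPM after siRNA and 5.39 ± 0.524 CPM in the control, while *RGS10* (-1.01) and *RGS22* (-1.03) lay close to 2-fold. Without siRNA replicate 1 or siRNA replicate 3, 1 member was called lower, *RGS10* being at -0.99 or -0.78 and *RGS22* at -0.99 or -0.91. *RGS10* was at -0.95 without control replicate 2, and *RGS22* at -0.88 without control replicate 1.

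Several phosphodiesterases of cyclic AMP rose, and phosphodiesterases activated by calcium fell. Of 31 tested phosphodiesterases, adenylyl cyclases and related genes 9 were called higher and 7 lower (median log2 fold change 0.32). *PDE4D*, specific for cyclic AMP, had 71.8, 64.6 and 60.1 CPM after siRNA, against 5.10, 5.25 and 7.90 CPM in the control (log2 fold change 3.43, adjusted p = 3.40e-13). *PDE3B*, which acts in the insulin response of fat cells, had 36.1, 34.0 and 31.3 CPM after siRNA, against 1.60, 1.22 and 2.81 CPM in the control. *PDE4B* (2.01) and *PDE8B* (2.44), specific for cyclic AMP as well, followed. *PDE1A*, activated by calcium, had 6.41, 5.07 and 5.75 CPM after siRNA, against 34.2, 32.5 and 25.2 CPM in the control (log2 fold change -2.42), and *PDE1C* was at -1.64 but may share reads with another gene. *ADCY7*, a cyclase that makes cyclic AMP, was lower (-1.43), as was *PRKG2*, a kinase activated by cyclic GMP (-1.93). Of 2 regulators of the phosphatase calcineurin, *RCAN2* fell to 10.5 ± 0.857 CPM after siRNA, against 59.7 ± 6.10 CPM in the control, while *RCAN1*, the member with the highest FPKM, was at 1.11, or 0.99 without siRNA replicate 3.

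Among G protein-coupled receptors those of endothelin and nucleotides rose, and those of angiotensin and sphingosine 1-phosphate fell. Of 62 tested receptors 15 were called higher and 20 lower (median log2 fold change -0.18), and 33 more in the table had too few counts. Both receptors of endothelin, a peptide that contracts vessels, rose. *EDNRA* had 139.6, 136 and 121 CPM after siRNA, against 21.9, 25.3 and 30.1 CPM in the control (log2 fold change 2.36, adjusted p = 4.80e-13), and *EDNRB* 63.2, 58.2 and 66.5 CPM after siRNA, against 4.12, 4.49 and 7.49 CPM in the control. *ADRA2A*, a Gi-coupled adrenergic receptor that restrains lipolysis in fat cells, had 48.1, 49.0 and 35.6 CPM after siRNA, against 1.49, 1.57 and 5.61 CPM in the control. Its log2 fold change of 3.94 (adjusted p = 0.0024) was 4.85 without control replicate 3. The serotonin receptor *HTR2A* (2.19), the nucleotide receptors *P2RY2* (2.05) and *P2RY6* (2.30), the lysophosphatidic acid receptor *LPAR1* (1.62) and the Wnt receptor *FZD5* (3.54) were higher. *GPR84*, a receptor of medium-chain fatty acids in immune cells, had 1 count over the control libraries, a ratio of 70.7 with a 95% counting interval of 12.3 to 2831 that covers counting error only. The fitted log2 fold change, 5.69, was 7.55 without control replicate 3, which held that count, and such fitted values depend on the prior count. Of the macrophage markers, *TYROBP* had 7.61, 5.25 and 5.52 CPM after siRNA, against 1.60, 1.98 and 2.98 CPM in the control. *CD86* had 32.8, 30.8 and 33.8 CPM after siRNA, against 74.5, 68.9 and 57.4 CPM in the control. *MRC1* had 0, 0.119 and 0.117 CPM after siRNA, against 0.630, 0.758 and 0.877 CPM in the control.

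On the side of the receptors that fell, *AGTR1*, the type 1 angiotensin receptor, had 4.2, 4.95 and 4.70 CPM after siRNA, against 51.1, 46.6 and 43.2 CPM in the control (log2 fold change -3.34, adjusted p = 1.63e-14). *OXTR*, the oxytocin receptor, had 0.120, 0.238 and 0.293 CPM after siRNA, against 7.73, 6.41 and 4.15 CPM in the control. The adrenergic receptors *ADRA1B* (-4.08) and *ADRA2C* (-3.05), the serotonin receptor *HTR1B* (-2.72) and the adhesion receptor *ADGRD1* (-3.34) fell too. The 3 sphingosine 1-phosphate receptors on the list fell, with 13.3 ± 1.92 CPM of *S1PR1* after siRNA and 42.6 ± 2.40 CPM in the control (mean ± SD, n = 3), and log2 fold changes of -1.68, -1.38 for *S1PR2* and -1.80 for *S1PR3*. *S1PR5*, which was tested but is not on the list, was at -0.15 (adjusted p = 0.458). The Wnt receptor *FZD2* fell (-2.32), opposite to *FZD5*. *ADGRB1*, an engulfment receptor, had 0.180, 0.656 and 0.704 CPM after siRNA, against 2.81, 2.86 and 2.16 CPM in the control. The adenosine receptor *ADORA2B*, among the highest of the list by FPKM, was higher by less than 2-fold (0.65).

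Growth factor ligands were called higher more often than lower, and receptor tyrosine kinases lower more often than higher. Of 49 tested ligands 21 were called higher and 7 lower (median log2 fold change 0.62), and of 31 tested receptor tyrosine kinases 1 was called higher and 8 lower (-0.34). *AREG*, which encodes the EGF receptor ligand amphiregulin, had 858, 832 and 918 CPM after siRNA, against 28.6, 30.9 and 57.0 CPM in the control (log2 fold change 4.48, adjusted p = 0.000258). *EREG*, which encodes epiregulin, another EGF receptor ligand, was at 4.87 but may share reads with another gene. *HGF*, the ligand of MET, had 69.4, 60.2 and 63.4 CPM after siRNA, against 2.18, 1.28 and 2.69 CPM in the control (log2 fold change 4.97). *STC1*, which encodes the secreted glycoprotein stanniocalcin 1, had 173, 185 and 157 CPM after siRNA, against 6.07, 7.64 and 7.66 CPM in the control. *VEGFA*, the endothelial growth factor, was the most abundant ligand by FPKM, with 944 ± 43.2 after siRNA and 255 ± 28.9 in the control, and *FGF10*, which acts on FGFR2 and supports preadipocytes, was at 3.22. *TGFB2* (2.29), a TGF-beta ligand, *HBEGF* (1.85), also an EGF receptor ligand, *ANGPTL4* (2.31), an inhibitor of lipoprotein lipase, and *FGF2* (1.47) rose as well. In the other direction *GDF6*, a BMP-type ligand, had 0.180, 0.0596 and 0.0587 CPM after siRNA, against 7.16, 8.46 and 6.78 CPM in the control (log2 fold change -6.13, or -6.82 without siRNA replicate 1). *GDF10* had 2 counts over the siRNA libraries, a ratio to the control of 0.0164 with a 95% counting interval of 0.00196 to 0.0604. Its fitted log2 fold change, -5.69, was -8.38 without siRNA replicate 1, which held both counts. *PTN*, which encodes the heparin-binding factor pleiotrophin, had 12.4, 13.6 and 13.7 CPM after siRNA, against 64.5, 66.0 and 76.6 CPM in the control, and *IGF2* (-2.70), an insulin-like growth factor, and *GAS6* (-1.42), a ligand of AXL and TYRO3, fell.

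Of the receptors, *FLT1*, which binds VEGFA, had 31.5, 31.2 and 49.5 CPM after siRNA, against 6.58, 7.0 and 5.38 CPM in the control (log2 fold change 2.56), with the highest value in siRNA replicate 3. *FGFR2*, a receptor of fibroblast growth factors, had 10.7, 10.6 and 10.2 CPM after siRNA, against 30.7, 29.4 and 33.3 CPM in the control (log2 fold change -1.57). The WNT5A receptors *ROR1* (-1.20) and *ROR2* (-1.19) and *TYRO3* (-1.06) fell. The receptors of platelet-derived growth factor, *PDGFRB* (0.40), the most abundant receptor tyrosine kinase by FPKM, and *PDGFRA* (0.53), were not called.

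Axon guidance genes were called higher in 8 and lower in 9 of 45 tested cases (median log2 fold change -0.19). *SEMA3A*, a secreted repellent, had 67.1, 62.2 and 72.3 CPM after siRNA, against 20.6, 18.0 and 17.4 CPM in the control (log2 fold change 1.85), and *ROBO2*, a receptor of SLIT proteins, was at 3.26. The membrane-bound semaphorins *SEMA7A* (1.46) and *SEMA6C* (1.45) rose, and *SEMA5A* (2.53) may share reads with another gene. *SLIT3*, a ligand of ROBO receptors, fell to 19.8, 24.9 and 23.5 CPM after siRNA, against 132, 135 and 135 CPM in the control (log2 fold change -2.56, adjusted p = 2.07e-14). The semaphorins *SEMA3D* (-1.98) and *SEMA6D* (-1.49), the netrin *NTNG2* (-1.56) and the semaphorin coreceptor *NRP2* (-1.48) fell too, while *SEMA3C*, among the most abundant members, was at 0.83. Of 17 tested Notch genes 4 were called higher and 2 lower (median log2 fold change -0.14). *JAG1*, a Notch ligand, had 8.03, 8.88 and 8.98 CPM after siRNA, against 27.3, 28.2 and 30.2 CPM in the control. *DTX4* (1.65), which encodes a ubiquitin ligase of the pathway, and *DNER* (1.26), an atypical ligand, were higher, and *HES4* (5.32), a repressor induced by Notch, may share reads with another gene. *NOTCH2*, the most abundant receptor, was not called (-0.14, adjusted p = 0.172). With DESeq2, with the stricter filter on low counts, and without siRNA replicate 2 or control replicate 3, 1 Notch gene was called lower.

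**Figure D3:**
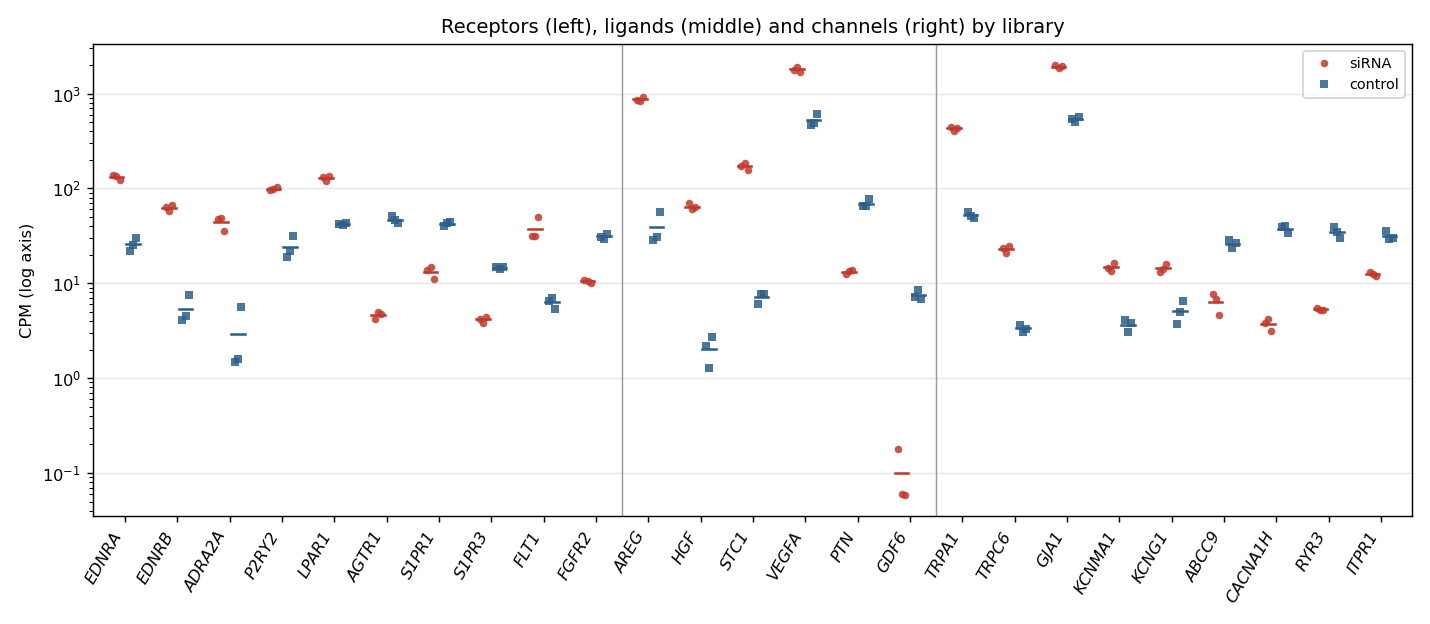
CPM on a log axis of 10 receptors, 6 ligands and 9 channel genes in each siRNA library (circles) and control library (squares), with the mean of each group as a line. The groups do not overlap in these genes, and for *ADRA2A* and *AREG* control replicate 3 lies above the other control libraries.

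Among channels the cation channel *TRPA1* and the gap junction gene *GJA1* rose to high levels, and genes of calcium release fell. *TRPA1*, a sensor of reactive chemicals best known from pain neurons, had 449.7, 401 and 435 CPM after siRNA, against 56.9, 51.3 and 48.5 CPM in the control (log2 fold change 3.04, adjusted p = 1.92e-15). *GJA1*, which encodes the main connexin of heart and fibroblasts, had 1980.4, 1864 and 1947 CPM after siRNA, against 544, 499 and 566 CPM in the control and was the most abundant channel gene by FPKM. *TRPC6*, a receptor-operated calcium channel, was at 2.79. Of the 43 tested genes of this mixed list 7 were called higher and 5 lower (median log2 fold change 0.25). Those that fell included *NALCN*, the sodium leak channel (-3.37), *GJB2*, which encodes another connexin (-2.44), and the chloride transporter *CLCN4* (-1.72). Of 23 tested potassium channel genes, beside 41 with too few counts, 7 were called higher and 5 lower (-0.19), or 8 lower with DESeq2. *KCNMA1*, the large calcium-activated potassium channel, had 14.4, 13.6 and 16.4 CPM after siRNA, against 4.07, 3.03 and 3.80 CPM in the control (log2 fold change 2.02). Among the others that rose were the modulatory subunit *KCNG1* (1.52) and *KCNK12* (1.61), a tandem pore channel and the most abundant after siRNA by FPKM. The subunits of the vascular ATP-sensitive channel, *ABCC9* (-2.03) and *KCNJ8* (-1.32), both fell. *KCNE1*, a channel subunit of heart muscle, had no count after siRNA, against 1.66, 2.10 and 1.75 CPM in the control, which makes it at least 30.9-fold lower by a floor of 3 counts over the group.

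Of 38 tested genes of calcium channels and calcium release 3 were called higher and 11 lower (median log2 fold change -0.09). *CACNA1H*, a T-type calcium channel, had 3.78, 4.23 and 3.11 CPM after siRNA, against 39.0, 39.8 and 34.3 CPM in the control (log2 fold change -3.34, adjusted p = 6.68e-14). *RYR3*, a ryanodine receptor that releases stored calcium, had 5.46, 5.25 and 5.22 CPM after siRNA, against 39.1, 34.6 and 30.2 CPM in the control. The inositol trisphosphate receptor *ITPR1* (-1.33), the calcium store protein *CASQ1* (-1.86) and *JPH2*, which joins the store to the cell surface (-1.20), fell as well. *ATP2B1*, a calcium pump of the plasma membrane, was called higher (1.24), while the store pump *ATP2A2*, the highest of the list by FPKM after siRNA, was at 0.97, or 1.02 without control replicate 1. *CACNA1C*, the L-type channel of smooth muscle, was at 0.25 (adjusted p = 0.00587).

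The main fibrillar collagens shifted against each other. *COL1A1* had 15832, 17566 and 17118 CPM after siRNA, against 46372, 51122 and 48428 CPM in the control (log2 fold change -1.53, adjusted p = 6.46e-12). *COL1A2*, its partner in collagen I, was at -0.80 and *COL3A1*, the chain of collagen III, at 0.93, both within 2-fold, and *COL3A1* at 1.02 without replicate 3 of both groups. By FPKM *COL3A1* stood at 5259.7 ± 278 after siRNA, above *COL1A1* at 3016 ± 160.3, whereas in the control *COL1A1* at 8806 ± 394 stood above *COL3A1* at 2768 ± 56.5 (mean ± SD, n = 3). Basement membrane collagens were higher. *COL4A1* had 4947, 5392 and 4552 CPM after siRNA, against 1595, 1658 and 1821 CPM in the control (log2 fold change 1.55), *COL4A2* was at 1.31 and *COL18A1* at 1.23. *COL21A1*, a small fibril-associated collagen, had 15.0, 16.2 and 12.2 CPM after siRNA, against 0.0573, 0.117 and 0.175 CPM in the control. *COL11A1*, a chain that sets fibril width, fell to 11.2, 11.2 and 12.1 CPM after siRNA, against 207, 205 and 178 CPM in the control (log2 fold change -4.09), and *COL5A1* (-1.19), *COL8A2* (-3.98) and *COL26A1* (-4.64) fell. Of the 27 tested chains 4 were called higher and 5 lower (median log2 fold change -0.0046).

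Elastin and several proteins of its fibres fell. In the list of elastic fibre, crosslinking and proteoglycan genes 5 were called higher and 16 lower of 54 tested (median log2 fold change -0.31). *ELN*, which encodes elastin, had 3.06, 3.46 and 4.46 CPM after siRNA, against 30.8, 35.5 and 24.9 CPM in the control (log2 fold change -3.05, adjusted p = 1.42e-11). *FBLN2*, a fibulin that binds elastin, had 179, 179 and 176 CPM after siRNA, against 1681, 1727 and 1809 CPM in the control. The microfibril genes *MFAP5* (-3.64) and *MFAP4* (-2.13) fell, and *EMILIN1* was at -1.02, within 2-fold without siRNA replicate 1 or control replicate 3. *FBN1*, which encodes the microfibril protein fibrillin 1, was lower by less than 2-fold (-0.56). *FBLN1* was the exception among the fibulins that were called, at 5.66 ± 0.542 CPM after siRNA and 0.309 ± 0.0659 CPM in the control. The small leucine-rich proteoglycans, which coat collagen fibrils, divided. *ASPN* had 36.7, 34.3 and 37.3 CPM after siRNA, against 395, 337 and 286 CPM in the control (log2 fold change -3.23), and *ECM2*, related to them, was at -3.17. *LUM* (1.14) and *PRELP* (1.20) were called higher, and *DCN* (0.65), *BGN* (-0.65) and *FMOD* (-0.56) stayed within 2-fold. *SPOCK1*, a testican, rose (2.44). *LOXL4*, an enzyme of the family that crosslinks collagen and elastin, had 34.7, 35.8 and 34.7 CPM after siRNA, against 212, 209 and 200.5 CPM in the control.

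**Figure D4:**
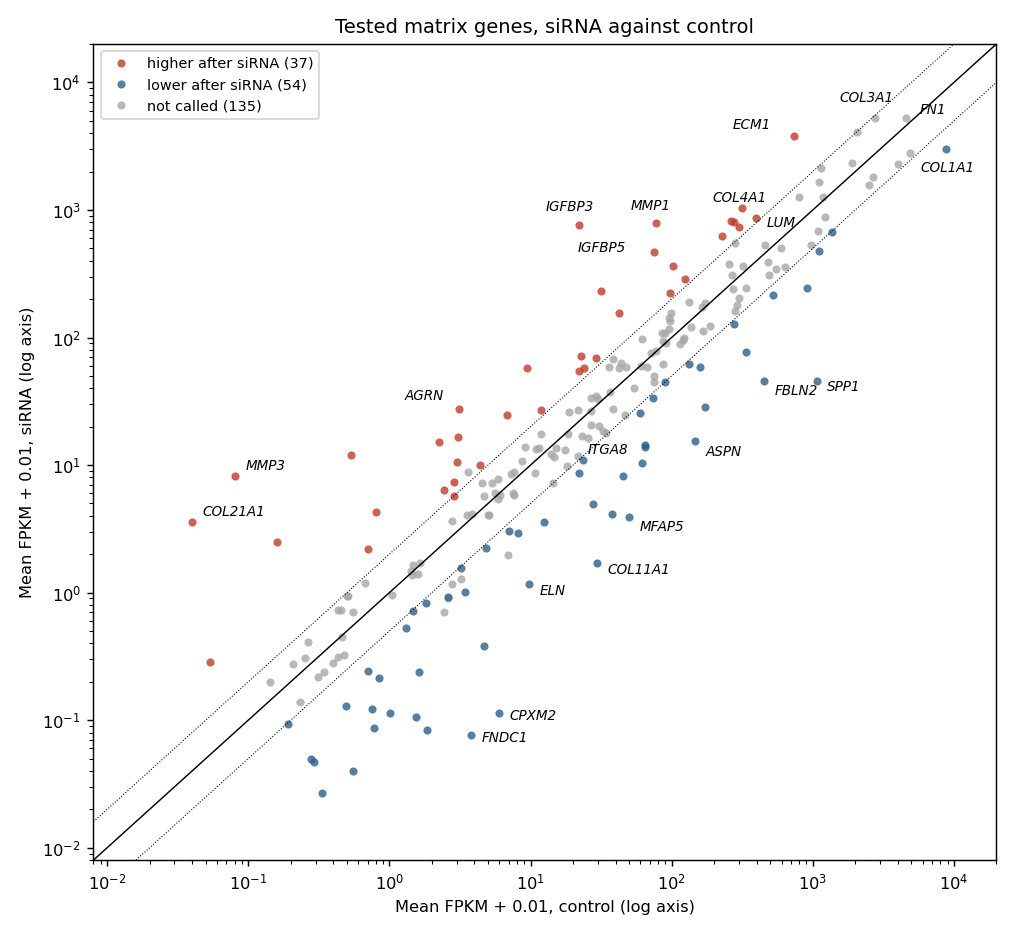
Mean FPKM plus 0.01 of the 226 tested matrix genes in the siRNA libraries (vertical, log axis) and control libraries (horizontal, log axis), coloured by call, with lines for equal levels (solid) and 2-fold differences (dotted). *COL1A1*, *SPP1* and *FBLN2* lie below the lines at high levels, and *ECM1*, *IGFBP3*, *MMP1* and *COL4A1* above them.

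Matricellular proteins, which modulate cells rather than build fibres, were called higher in 7 and lower in 12 of 46 tested cases (median log2 fold change -0.24). *IGFBP3*, which binds insulin-like growth factors, had 647, 781 and 471 CPM after siRNA, against 13.2, 12.2 and 29.2 CPM in the control. The log2 fold change of 5.12 (adjusted p = 0.000956) was 5.81 without replicate 3 of both groups, and *IGFBP5* (2.66) and *IGFBP4* (1.73) rose with it. *IGFBP2*, the most abundant of these binding proteins, was at 0.99, and passed 2-fold without siRNA replicate 1, siRNA replicate 3 or control replicate 3 (1.01, 1.08 and 1.15). *ABI3BP*, a matrix protein that binds ABI3, was at 2.59, and *ECM1*, at 3784 ± 194 FPKM after siRNA and 733 ± 59.1 FPKM in the control, may share reads with another gene. *SPP1*, which encodes osteopontin, had 39.7, 45.2 and 74.8 CPM after siRNA, against 1131, 1162 and 1406 CPM in the control (log2 fold change -4.53, adjusted p = 0.000165). The fibronectin type III protein *FNDC1* (-5.87), *CPXM2* (-5.80, or -6.50 without siRNA replicate 3), the collagen triple helix protein *CTHRC1* (-3.63, or -4.45 without siRNA replicate 3) and *SVEP1* (-2.49) fell. The YAP targets *CCN1* (-1.28) and *CCN2* (-0.79) were both lower, of which *CCN1* was called. *FN1*, which encodes fibronectin and was the most abundant member after siRNA, was at 0.22 (adjusted p = 0.0159), and *SPARC*, a collagen-binding protein, at -0.80.

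In the list of basement membrane genes and integrins 5 were called higher and 9 lower of 42 tested (median log2 fold change -0.26). *AGRN*, which encodes the heparan sulfate proteoglycan agrin, had 192, 199.6 and 203 CPM after siRNA, against 20.6, 20.8 and 25.9 CPM in the control (log2 fold change 3.14, adjusted p = 2.50e-15). *ITGA8*, a receptor for fibronectin and nephronectin in smooth muscle and fibroblasts, fell to 83.1, 84.8 and 84.9 CPM after siRNA, against 421, 387 and 374 CPM in the control (log2 fold change -2.22). *ITGA1*, a collagen receptor, was at 1.39, *ITGB5* at 1.64 and *ITGB8* at 1.39, all higher. *SGCB*, which encodes a sarcoglycan of the dystrophin complex, fell (-2.45), as did *LAMA2*, which encodes the laminin chain of muscle (-1.78), and *ITGBL1* (-2.16). The most abundant integrins were not called, *ITGB1* at -0.55 and *ITGA5* at -0.16 (adjusted p = 0.11).

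Several proteases that cut collagen and aggrecan rose. Of 57 tested proteases and inhibitors 16 were called higher and 12 lower (median log2 fold change 0.14). *MMP1*, the interstitial collagenase, had 1252, 1216 and 1625 CPM after siRNA, against 119, 114 and 169.8 CPM in the control (log2 fold change 3.34, adjusted p = 8.05e-06). *MMP3*, stromelysin 1, had 7.79, 6.92 and 18.9 CPM after siRNA, against 0.0573, 0.175 and 0.0585 CPM in the control. This change, 6.75 on the log2 scale, was 6.14 without siRNA replicate 3 and 7.43 without control replicate 2. *SERPINB2*, which encodes an inhibitor of plasminogen activators, was also highest in siRNA replicate 3 (11.4, 10.1 and 38.9 CPM after siRNA, against 1.26, 1.05 and 0.351 CPM in the control). The log2 fold change of 4.49 (adjusted p = 0.0214) was 3.59 without siRNA replicate 3 and missed the threshold without any 1 of the control replicates (adjusted p = 0.0716 to 0.0775). The lysosomal cathepsin *CTSL* had 273, 265 and 255 CPM after siRNA, against 32.3, 29.2 and 46.9 CPM in the control. The aggrecanases *ADAMTS1* (2.77), *ADAMTS5* (2.46) and *ADAMTS4* (1.87) rose, and *ADAMTS14*, which trims procollagen, fell (-2.82). *PLAU*, which encodes the plasminogen activator urokinase, fell (-1.10) and its receptor *PLAUR* rose (1.84). *MMP2*, the most abundant protease by FPKM, was at 0.92, or 1.02 without replicate 3 of both groups, and *TIMP1*, an inhibitor of these enzymes, at 0.57.

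Many contractile genes of smooth muscle fell, and the others were not called. Of 46 tested members of the list 0 were called higher by edgeR and by DESeq2 and 19 were called lower by each, and 43 had a negative log2 fold change, with a median of -0.89 beside 0.0084 over all tested genes. At an unadjusted p under 0.05, 1 member was higher, *CAV1*, which encodes the membrane protein caveolin 1, at 0.95 (adjusted p = 5.58e-07), which passed 2-fold without siRNA replicate 2 or control replicate 1 (1.04 and 1.04). *CNN1*, which encodes calponin 1, a marker of contractile smooth muscle, had 16.3, 16.5 and 17.7 CPM after siRNA, against 269, 309 and 307 CPM in the control, with a log2 fold change of -4.13 ± 0.0872 (SE, adjusted p = 8.24e-17). *TAGLN*, which encodes the actin-binding protein transgelin, had 974, 1096 and 1036 CPM after siRNA, against 4121, 4631 and 4771 CPM in the control (log2 fold change -2.12). *ACTA2*, the smooth muscle actin of myofibroblasts, was at 507 ± 20.7 CPM after siRNA and 6087 ± 87.8 CPM in the control but may share reads with another gene. *ACTG2*, the enteric smooth muscle actin, had 198, 209 and 199 CPM after siRNA, against 1407, 1429 and 1370.2 CPM in the control.

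Genes of the motor, the thin filament and its anchors were among those called. *MYLK*, the kinase that starts smooth muscle contraction, had 83.3, 76.0 and 83.9 CPM after siRNA, against 406, 369 and 326 CPM in the control (log2 fold change -2.18), and its substrate *MYL9* was at -1.81. *MYH11*, the smooth muscle myosin, had 3.93 ± 0.760 CPM after siRNA and 8.77 ± 2.17 CPM in the control, at -1.16, or -0.94 without control replicate 2. Of the thin filament, *TPM1* (-2.17), *CALD1* (-1.45) and *LMOD1* (-3.21), which nucleates actin filaments, fell. The actin anchors and crosslinkers *VCL* (-1.17), *FLNA* (-1.15) and *ACTN1* (-1.08) fell by less. *SYNPO2* (-3.52) and *SYNM* (-3.26) fell by more than most members. Beside these values, the summed smooth muscle and pericyte markers, of which several are members of this list, stood at 1638 to 1809 CPM after siRNA, against 11640 to 12449 CPM in the control. This sum was dominated by *ACTA2* and *TAGLN*, with means of 6087 and 4508 CPM in the control, and so largely repeats their values. Of the 11 tested markers 8 were called lower, 2 were not called and 1, *RGS5* (3.71), was called higher.

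Most called genes of the striated muscle list fell as well. The list is not specific to that tissue, since *DES* is also among the smooth muscle and pericyte markers summed above. Of 26 tested members, beside 40 with too few counts, 2 were called higher and 17 lower (median log2 fold change -1.60), and the highest by FPKM in the control were *DES* (398 ± 48.8), *HSPB6* (381 ± 25.1) and *CRYAB* (277 ± 16.2). *DES*, which encodes the intermediate filament desmin, had 0.540, 0.894 and 0.763 CPM after siRNA, against 734, 796 and 641 CPM in the control (log2 fold change -9.93, adjusted p = 2.04e-18). *CRYAB*, a chaperone that protects desmin, had 24.8, 21.9 and 22.8 CPM after siRNA, against 163, 170.1 and 157 CPM in the control. The related chaperones *HSPB6* (-1.61) and *HSPB7* (-3.82) fell, as did *FLNC*, which encodes filamin C of the Z-disc (-2.18). *MYL1*, a light chain of fast muscle myosin, had 0.0600, 0 and 0.235 CPM after siRNA, against 8.87, 7.87 and 6.49 CPM in the control, and its log2 fold change of -6.19 was -7.70 without siRNA replicate 3. *ACTC1*, the cardiac actin, had 0.120, 0.179 and 0.117 CPM after siRNA, against 6.13, 8.34 and 1.75 CPM in the control, where replicate 3 was the lowest. The change of -5.21 on the log2 scale (adjusted p = 0.0101) missed the threshold without siRNA replicate 1 (adjusted p = 0.0592). *ACTN2*, which encodes the Z-disc actinin, had 0.360, 0.298 and 0.235 CPM after siRNA, against 1.03, 1.11 and 1.05 CPM in the control. *MYBPH*, a myosin-binding protein, rose (2.11), and *NEXN*, an actin-binding Z-disc protein, was at 0.16 (adjusted p = 0.0654). With no filter on low counts 29 members were called lower, and with the stricter filter 11.

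The markers of skeletal myoblasts, another cell type that back fat could hold, were traces, and their sum was lower after siRNA as well. Their 8 genes in the table summed to 0.120 to 0.298 CPM after siRNA, against 0.409 to 2.74 CPM in the control, where replicate 3 was the lowest as for *ACTC1*. *MYOG*, the myogenic factor of differentiating myoblasts, had 0 counts over the siRNA libraries and 15 over the control libraries. *CHRNA1*, a subunit of the muscle acetylcholine receptor, had 1 and 43, while *MUSK*, another marker of the list, had 8 and 6. The control libraries of *DES* stood in the same order as that sum, at 734, 796 and 641 CPM, with smaller differences. Other striated muscle genes stood in other orders in the control, among them *MYL1* (8.87, 7.87 and 6.49 CPM) and *HSPB7* (12.4, 13.5 and 13.9 CPM). The part of myoblasts in these values was not tested.

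**Figure D5:**
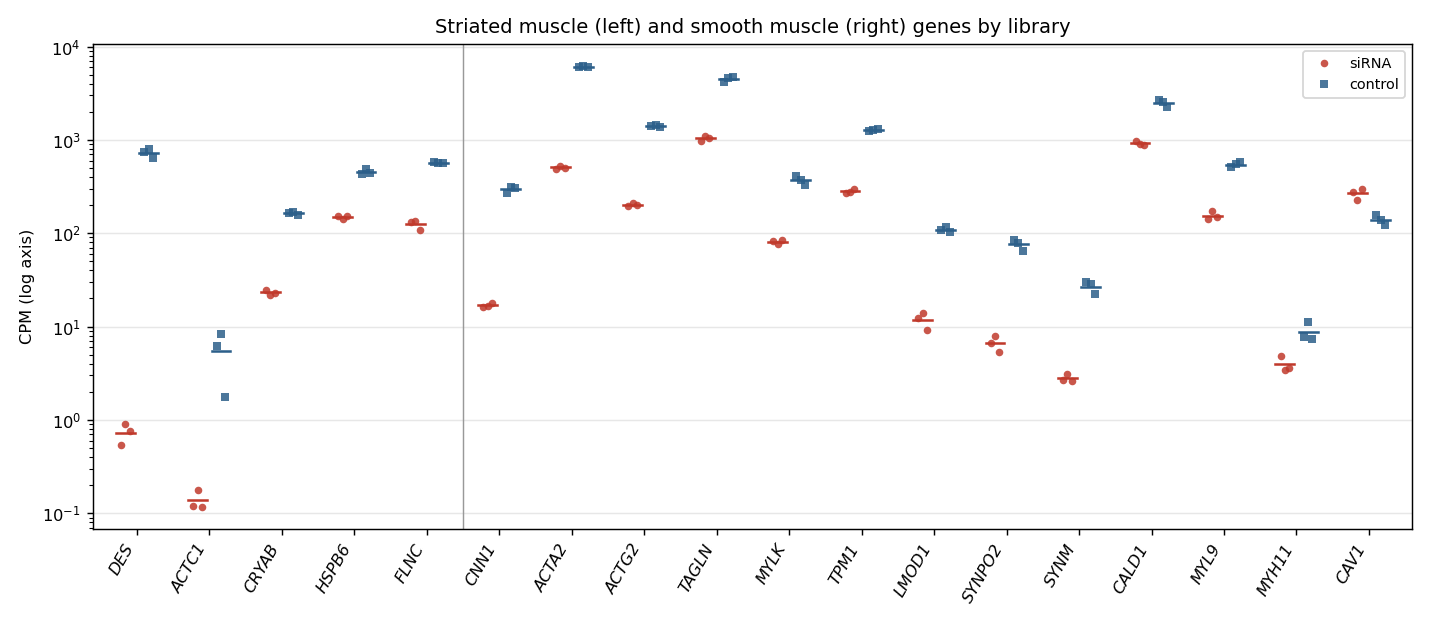
CPM on a log axis of 5 genes of the striated muscle list and 13 of the smooth muscle list. Circles mark siRNA libraries, squares control libraries and lines the mean of each group. The siRNA libraries lie below the control libraries in each gene except *CAV1*, with the widest gap for *DES*.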

How the data were processed

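RNA of the 6 libraries, after removal of ribosomal RNA per the labels or capture of poly(A) RNA per the study's methods, was sequenced on a BGISEQ500 and aligned with HISAT. Of the counting tool, genome build, annotation and strand setting, none is given in the sources used here. The authors deposited estimated counts and FPKM per gene, and 5.40% of the count values were not whole and were rounded. Counts were filtered by filterByExpr, scaled by TMM and tested with edgeR 4.0.16 (R 4.3.3, quasi-likelihood test, robust, Benjamini-Hochberg adjustment over 12471 of 16562 genes). A gene was called at an adjusted p under 0.05 and at least 2-fold. DESeq2 1.42.0, limma 3.58.1 on log2(FPKM + 1) with a pseudocount of 1, which understates changes of low genes, other filters and left-out libraries were the alternatives. On simulated data with far fewer changed genes than here, 8.61% of the genes with an adjusted p under 0.05 were unchanged ones. The stricter filter asked for 1 CPM in 3 libraries.

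Members and lists were chosen with earlier results of these data known. From each list, up to 5 called members in each direction with the largest change, at least 1 FPKM in a group and no overlap were named, with the 2 highest by mean FPKM and, over all genes, the 10 largest changes in each direction at a mean of at least 5 CPM. The genes the study names for this comparison were added. All other genes named, among them *JUN*, *JUNB*, *FOS*, *CEBPA*, *CEBPB*, *SRF*, *MRTFA*, *MYOCD*, *DUSP6*, the S1PR, P2RY and *OXTR* receptors, *TGFB2*, *FGF2*, *COL1A2*, *FBN1*, *LOXL4*, *CCN1*, *CCN2*, *PLAU*, *PLAUR*, *MYLK*, *MYL9*, *MYH11*, *TPM1*, *CALD1*, *VCL*, *FLNA*, *CAV1*, *CD86* and *TYROBP*, were chosen after their values were seen. Genes with a count that was not whole in any of the 6 libraries, 141 of the called ones, may share reads with another gene, as is said where they are named. Which gene that would be was not looked up. A total of 97.5% of the symbols matched RefSeq symbols. The overexpression libraries entered only an alternative fit of all 9 libraries, and lnc*PLAAT3*-AS was not analysed here. Some genes that the rule names are not reported here.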

Additional observations from a re-analysis of the deposited data

How the results depend on the processing

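Over all genes, 614 were called higher and 370 lower by limma on log2(FPKM + 1), 394 and 293 at a threshold of 4-fold, and 3553 and 3443 with no fold threshold, against 972 and 862 in the fit reported. Leaving out 1 library at a time gave 964 to 1034 genes higher and 874 to 948 lower. DESeq2 called 1011 and 930, of which 1771 were among the 1834 calls reported. The replicate numbers come from the sample titles. In their deviations from the group means, same-numbered libraries correlated at 0.187, 0.0608 and 0.0103, and siRNA replicate 2 correlated best with control replicate 3 (0.158). Deviations from the means of 3 libraries cannot settle whether the libraries are paired, and the fit reported took them as unpaired. With the replicate as a block, 972 genes were called higher and 875 lower, and *VGLL3* lay just within 2-fold, as it did with no filter. Of 232 called genes among 270 tested genes named, 14 lost their call under an alternative other than limma, with which 30 did. A gene that the filter of an alternative removed was not counted as having lost its call there. The named genes *LPL*, *CD36*, *FABP4*, *CD14* and *MRC1* are not in these counts. The direction turned for *MYOCD*, at 0.12 without control replicate 2, 0.023 without control replicate 3 and 0.14 without replicate 3 of both groups, and for *MRTFA*, at 0.029 without siRNA replicate 1 and 0.025 without control replicate 2, and leaving out 1 library gave -0.45 to 0.12 for *MYOCD* and -0.085 to 0.029 for *MRTFA*. The cause was not tested. Depth limits genes under about 1 CPM, such as most striated muscle genes, and the 1 animal behind the libraries limits what the p-values cover.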

Other observations

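Of the adipocyte markers, *LPL*, which encodes lipoprotein lipase, made up most of the signal after siRNA, as the markers summed to 428 to 603 CPM after siRNA, against 192 to 223 CPM in the control, and to 113 to 127 CPM after siRNA, against 129 to 148 CPM in the control, without *LPL*. Of the genes tested that are on none of the lists, 1367 of 11472 were called.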
